A study of Mus musculus with 6 samples.

Results

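The secondary granule genes Ngp, Camp, Ltf and Lcn2 and the calprotectin genes S100a8 and S100a9 were followed in HSCs sorted from mouse BM, as 6 of the 21878 genes listed in each library. They were taken by symbol, and they had been selected on their measured FPKM, which earlier results on these same 6 libraries showed to be lower with IGF1. Their difference between the groups is therefore given as a description, with no test.

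Neutrophils make their granules in sequence as they mature. Primary granules with myeloperoxidase and the serine proteases are filled first, in promyelocytes, and secondary granules with lactoferrin, cathelicidin and neutrophil granule protein follow in myelocytes. Calprotectin, the heterodimer of S100A8 and S100A9, is the main calcium-binding protein of the neutrophil cytosol and is not packed into granules. In HSCs, which stand before lineage choice, transcripts of these genes are usually low.

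The control group held 3 libraries of HSCs from vehicle-treated mice, and the IGF1 group held 3 libraries of HSCs from mice that had received recombinant mouse IGF1 once under the skin, at 200 µg/kg, and were sampled at day 1. All mice were wild type (WT) and their age was not stated. The dose and route came from the study's methods and the day from its figure legends. The labels conflict on the treatment, since the treatment label names IGF-1 while the text on RNA extraction names IR. The HSCs were gated as Lineage-, Sca-1+, c-Kit+, CD34- and Flk2- (Flt3-). Nothing states whether libraries of a group came from separate mice, so the p-values measure the spread between these libraries, which may be technical. Values are FPKM, fragment counts scaled by transcript length and library depth, so that genes are compared per length. Depth, recovered from the steps between the values, was between 11206800 and 15973834 reads on listed genes per library. The sorted gate could be compared with its genes. Ly6a (Sca-1) lay between 219 and 615 FPKM. Kit (c-Kit) measured 105, 31.4 and 104 FPKM in controls and 24.2 to 24.6 FPKM with IGF1. Of other HSC genes, Procr lay between 11.5 and 18.7 FPKM, while Hoxb5 reached at most 0.691 FPKM. Transcripts of both gate-negative genes were abundant, with Cd34 between 230 and 640 FPKM and Flt3 between 117 and 188 FPKM, and Mpo of primary granules ranked between 11th and 67th of all genes. The transcripts therefore did not match the CD34- and Flt3- gate, although transcript and surface protein need not go together.

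One library stood apart. Control replicate 2 differed from the other controls by a chi-squared per gene of 229 and 231 over genes with at least 20 reads, against 1.52 between control replicates 1 and 3 and 1.69 to 1.89 among the IGF1 libraries. It lay closer to the IGF1 libraries, at 24.6 to 28.0. The labels do not settle whether it was assigned to the right group, and it was kept as labelled, so that each mean and SD over 3 controls includes it. Each value below is given with all 3 controls and, where it matters, with control replicates 1 and 3 alone.

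The windows below hold the matches to a C/EBP pattern, since C/EBP factors are known drivers of secondary granule genes. Promoters of all 6 members were found in the RefSeq table for GRCm38.p6, and the 250 bases before each start were searched on both strands for TTNNGNAAT, a core that C/EBP factors bind. It occurred before Ngp, S100a9 and Ltf, 3 of 6 members, and in 10.2% of 32851 promoters. Each 100-base window is written 5′ to 3′ on the gene's strand, with the match in capitals.
Ngp, chr9:110419623-110419722, plus strand: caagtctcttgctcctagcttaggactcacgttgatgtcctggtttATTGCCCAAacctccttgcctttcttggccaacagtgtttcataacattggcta
Ltf, chr9:111019171-111019270, plus strand: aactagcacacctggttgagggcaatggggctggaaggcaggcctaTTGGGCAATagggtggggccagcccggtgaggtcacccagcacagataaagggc
S100a9, chr3:90695799-90695898, minus strand: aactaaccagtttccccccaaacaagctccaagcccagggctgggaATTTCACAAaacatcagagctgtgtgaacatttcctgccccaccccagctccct
The matches began 139, 75 and 131 bases before the start of Ngp, Ltf and S100a9. Ngp and Ltf held the same 9 letters, TTGGGCAAT, on opposite strands, and the S100a9 match read TTGTGAAAT on the strand opposite to the gene. GAGGAA, the PU.1 core, occurred before S100a8, Ltf and Lcn2, against 23.3% of all promoters. TGTGGT, the RUNX core, occurred before S100a9 (14% of all promoters), and AGATAA, the GATA core, before S100a9 and Ltf (9.99%). TATAAA occurred before S100a8 (12.4%), and TTCNNNGAA of STAT factors before 0 of 6 members (7.02%). None of the 6 patterns was in the 250 bases before Camp. Such a match describes these letters and is not a site.

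The secondary granule proteins came first. Ngp, neutrophil granule protein, a cystatin-like protein of secondary granules, stood at 79.0, 11.5 and 78.2 FPKM across control replicates 1 to 3, but at 2.22, 3.73 and 3.47 FPKM across IGF1 replicates 1 to 3. Control replicates 1 and 3 were alike, control replicate 2 was far below them, and the IGF1 libraries were lower still. The group means were 56.2 ± 38.7 FPKM in controls and 3.14 ± 0.805 FPKM with IGF1 (SD, n = 3 each), a ratio of 17.9, or of 25 with control replicates 1 and 3 alone. On the log2(FPKM + 1) scale, which understates differences of low genes, the difference of Ngp, IGF1 minus control, was -3.39, and -4.28 without control replicate 2. That was the lowest of 10449 genes tested, a place which the choice of the gene fixed.

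Ltf encodes lactoferrin, the iron-binding protein that defines secondary granules. Its levels were 13.2, 0.442 and 13.6 FPKM among controls, against 0.235, 0.0966 and 0.141 FPKM with IGF1. Control replicate 2 was 30.3-fold below the mean of the other controls and 1.88 times the highest IGF1 library. These values rest on 581, 14 and 599 recovered reads in the controls and on 8, 3 and 5 reads with IGF1. The 14 reads of control replicate 2 have an exact Poisson 95% interval of 7.65 to 23.5. That of the 8 reads of IGF1 replicate 1 is 3.45 to 15.8, and that of the 3 reads of IGF1 replicate 2 is 0.619 to 8.77. Both overlap the interval of control replicate 2, and all are for counting error only. With at least 1 FPKM in only control replicates 1 and 3, Ltf did not pass the filter of at least 1 FPKM in 3 libraries, so 5 of 6 members entered the fit. The means were 9.07 ± 7.48 and 0.158 ± 0.0708 FPKM (SD, n = 3 each), and the log2 difference was -2.53, or -3.64 with control replicates 1 and 3.

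Lcn2, lipocalin 2, binds bacterial siderophores and was the least different of the members. Its levels were 9.22, 3.15 and 9.45 FPKM in controls and 3.03, 1.76 and 1.73 FPKM with IGF1. Control replicate 2 and IGF1 replicate 1 met at the border of the groups, with 31 and 32 recovered reads and overlapping Poisson intervals (21.1 to 44.0 and 21.9 to 45.2 reads). The means were 7.27 ± 3.57 and 2.17 ± 0.741 FPKM (SD, n = 3 each), with a log2 difference of -1.29, or -1.73 without control replicate 2.

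Camp, which encodes the cathelicidin antimicrobial peptide, kept a high level in all 3 controls. It measured 33.2, 20.8 and 35.1 FPKM in controls, against 5.66, 4.42 and 5.05 FPKM with IGF1. Here control replicate 2 sided with the other controls and the lowest control was 3.68 times the highest IGF1 library. The means were 29.7 ± 7.76 and 5.04 ± 0.618 FPKM (SD, n = 3 each), and the log2 difference was -2.32, or -2.55 without control replicate 2.

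The calprotectin subunits followed Camp. S100a8 was the most abundant member, at 284, 163 and 285 FPKM in controls and 55.0, 72.8 and 60.9 FPKM with IGF1. S100a9 measured 81.8, 49.6 and 79.4 FPKM in controls and 14.5, 12.1 and 14.4 FPKM with IGF1. For both subunits control replicate 2 was below controls 1 and 3 and above every IGF1 library. The means of S100a8 were 244 ± 70.0 and 62.9 ± 9.06 FPKM, and those of S100a9 were 70.3 ± 18.0 and 13.7 ± 1.32 FPKM (SD, n = 3 each). The log2 differences were -1.90 for S100a8 and -2.25 for S100a9, or -2.17 and -2.48 without control replicate 2. S100a8 kept a high rank even so, between 1319th and 1626th of all genes in the IGF1 libraries against 264th to 677th in the controls.

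**Figure D1:**
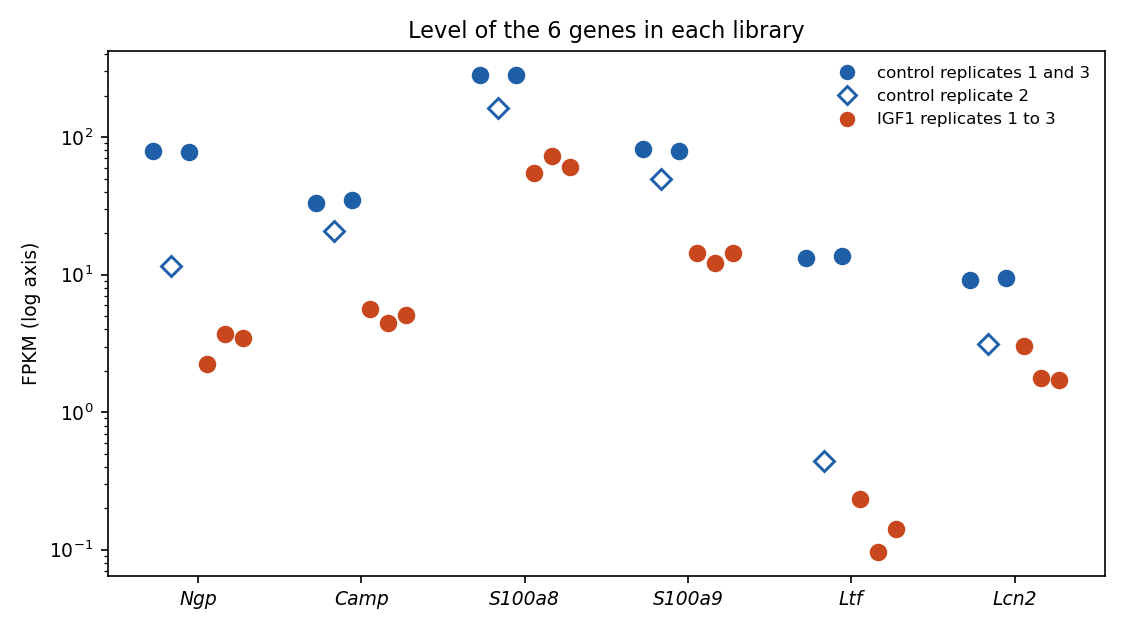
FPKM of each of the 6 genes (log axis) in each library, with control replicates 1 and 3 as filled blue points, control replicate 2 as an open diamond and the IGF1 libraries as filled orange points. Control replicate 2 lies near the other controls for Camp, S100a8 and S100a9 and next to the IGF1 libraries for Ltf (0.442 FPKM) and Lcn2 (3.15 FPKM).

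For each of the 6 members every IGF1 library lay below every control library, which was also the case for 37.4% of the 10449 genes tested. The limma fit over all tested genes (fold change over 2 and adjusted p under 0.05) called 4.63% of them lower, and 4 of the 5 members that entered it, all but Lcn2. Without control replicate 2 it called 20.6% of genes lower and all 5. Leaving out any one of the other 5 libraries, limma called 0 genes, with 2982 to 3205 at an unadjusted p under 0.05. Since this contrast chose the members, nothing is read from their counts. The median log2 difference over the 6 members was -2.28, and over all genes tested it was -0.18. In bulk RNA, fewer cells that hold these transcripts and less of the transcripts per cell cannot be told apart.

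Control replicate 2 split the members. Its place was set between the mean of the IGF1 libraries (0%) and the mean of control replicates 1 and 3 (100%) on the log2(FPKM + 1) scale. It stood at 73.0% for Camp, 72.2% for S100a9 and 63.2% for S100a8, at 37.6% for Ngp, and at 23.8% for Lcn2 and 8.77% for Ltf. Over the 3438 genes called without this library, the median place was 19.9%, with quartiles of 8.63% and 32.3%. Over the 2157 of them called lower, it was 21.6%, with quartiles of 9.60% and 34.6%. The calprotectin subunits and Camp were thus well above both upper quartiles and Ngp just above them, while Lcn2 lay between the quartiles. Ltf lay near the lower ones, but its place depends on the added 1, and it did not enter the fit. The members were chosen with control replicate 2 among the controls, which favours a high place, so nothing is read from these places.

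**Figure D2:**
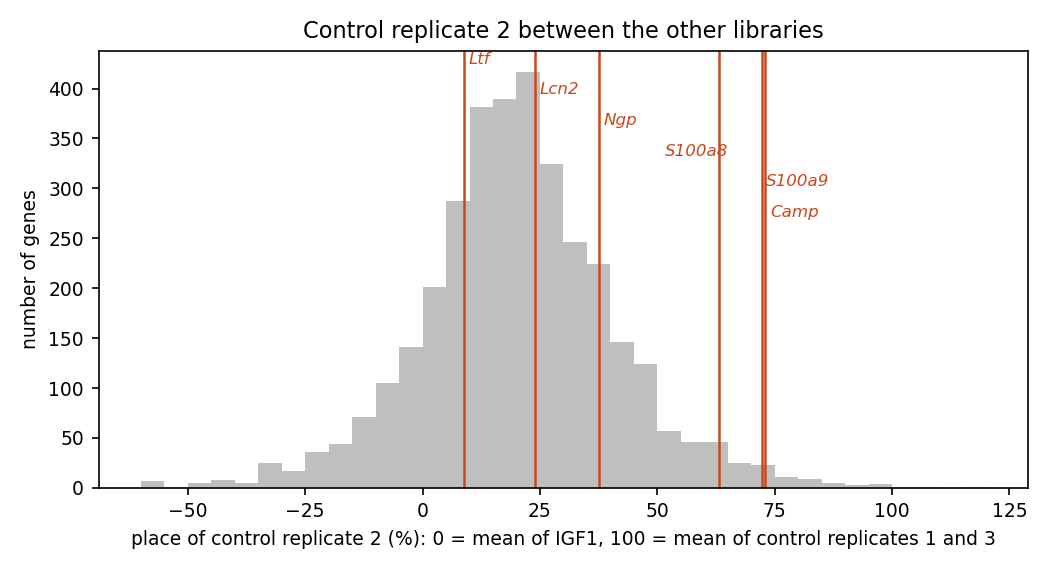
Place of control replicate 2 (%) on a scale from the mean of the IGF1 libraries (0) to the mean of control replicates 1 and 3 (100). Grey bars count the 3438 genes called without control replicate 2, with values beyond the ends of the axis in the outer bars, and lines mark the members, from Ltf at 8.77% to Camp at 73.0%.

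The order of the members also moved. In control replicates 1 and 3 it ran from S100a8 over S100a9, Ngp, Camp and Ltf to Lcn2. S100a9 and Ngp, neighbours in that order, were at 81.8 and 79.0 FPKM in control replicate 1 and at 79.4 and 78.2 FPKM in control replicate 3, which is about the spread of S100a9 between these libraries. In control replicate 2, IGF1 replicate 2 and IGF1 replicate 3 the order was S100a8, S100a9, Camp, Ngp, Lcn2 and Ltf, and in IGF1 replicate 1 Lcn2 stood above Ngp. The ranges of these neighbours overlapped over the IGF1 libraries, while those of the others did not. The ratio of Ngp to Camp was 2.38 and 2.23 in control replicates 1 and 3, 0.552 in control replicate 2 and between 0.393 and 0.843 with IGF1. The ratio of Ltf to Lcn2 was 1.43 in control replicates 1 and 3, 0.14 in control replicate 2 and between 0.0549 and 0.0819 with IGF1. Camp to S100a9, in contrast, stayed between 0.352 and 0.442 over all 6 libraries, while S100a9 itself ranged from 12.1 to 81.8 FPKM. S100a8 to S100a9 was between 3.29 and 3.58 in controls and between 3.8 and 6.0 with IGF1. Together the 6 members made up 0.107% of the summed FPKM in control replicates 1 and 3, 0.0392% in control replicate 2 and 0.0118% to 0.014% with IGF1. S100a8 alone gave 56.7% and 56.9% of the members' sum in control replicates 1 and 3, 65.6% in control replicate 2 and 68.2% to 76.7% with IGF1.

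Other products of secondary and tertiary granules did not share one direction. Of 18 listed genes, 9 were tested and 0 passed, against 4.63% of all genes called lower and 1.98% called higher, with 2 at an unadjusted p under 0.05 and 0 called by voom on the recovered reads. Their median log2 difference was -0.07. Control replicates 1 and 3 stood apart from the other 4 libraries in several of them. Chil3 (Ym1) measured 19.1 and 17.1 FPKM in control replicates 1 and 3, 0.676 FPKM in control replicate 2, and 0.472 to 1.2 FPKM with IGF1. Lrg1 measured 7.33 and 6.47 FPKM in those 2 controls, 0.384 FPKM in control replicate 2 and 0.131 to 0.516 FPKM with IGF1. Cd177, a neutrophil surface protein of these granules, was at 2.91 and 3.43 FPKM there and was listed at 0 in the other 4 libraries. For these genes, picked after their values were seen, control replicate 2 lay within the range of the IGF1 libraries. For Ltf it lay above them, but with overlapping Poisson intervals. Cyba and Slpi, the genes of the list with the highest mean over all 6 libraries, went the other way. In control replicates 1 and 3, Slpi was below Hp, Pglyrp1, Chil3 and Itgb2. Cyba, an NADPH oxidase subunit, measured 208, 607 and 208 FPKM in controls and 716 to 775 FPKM with IGF1 (log2 difference 1.34, limma adjusted p = 0.063). Slpi, a protease inhibitor, measured 15.2, 84.3 and 11.9 FPKM in controls and 127 to 131 FPKM with IGF1 (2.31, limma adjusted p = 0.057). Without control replicate 2, 2 genes of the list passed in each direction, Chil3 and Itgb2 lower and Cyba and Slpi higher. Ptx3 was listed at 0 in every library.

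Primary granule genes are made earlier in maturation, and 0 of 11 tested passed the limma test. Of the 12 listed, Bpi did not reach the filter. The median log2 difference was -0.04, which became -0.36 under quantile normalization and 0.21 with scaling to the 75th percentile. At an unadjusted p under 0.05 there were 5, and voom called 0. Mpo, myeloperoxidase, was nearly level, at 1672, 1613 and 1705 FPKM in controls and 1648, 1654 and 1664 FPKM with IGF1. The ratio of S100a8 to Mpo was accordingly 0.170 and 0.167 in control replicates 1 and 3, 0.101 in control replicate 2 and 0.0333 to 0.0440 with IGF1. Prtn3, proteinase 3, measured 547, 1525 and 564 FPKM in controls and 1694 to 1731 FPKM with IGF1 (log2 difference 1.14, limma adjusted p = 0.081). Elane, neutrophil elastase, measured 92.8, 576 and 92.4 FPKM in controls and 692 to 709 FPKM with IGF1 (2.03, limma adjusted p = 0.073), and Ctsg, cathepsin G, 387, 1467 and 383 against 1338 to 1359 FPKM. Elane and Ctsg were picked after their values were seen. Without control replicate 2, Elane, Prtn3, Ctsg and Ms4a3 passed as higher and Ctsc as lower. Elane and S100a9 were at a similar level in control replicates 1 and 3, with a ratio of 1.13 and 1.16, while the ratio was 11.6 in control replicate 2 and 48.2 to 57.3 with IGF1.

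**Figure D3:**
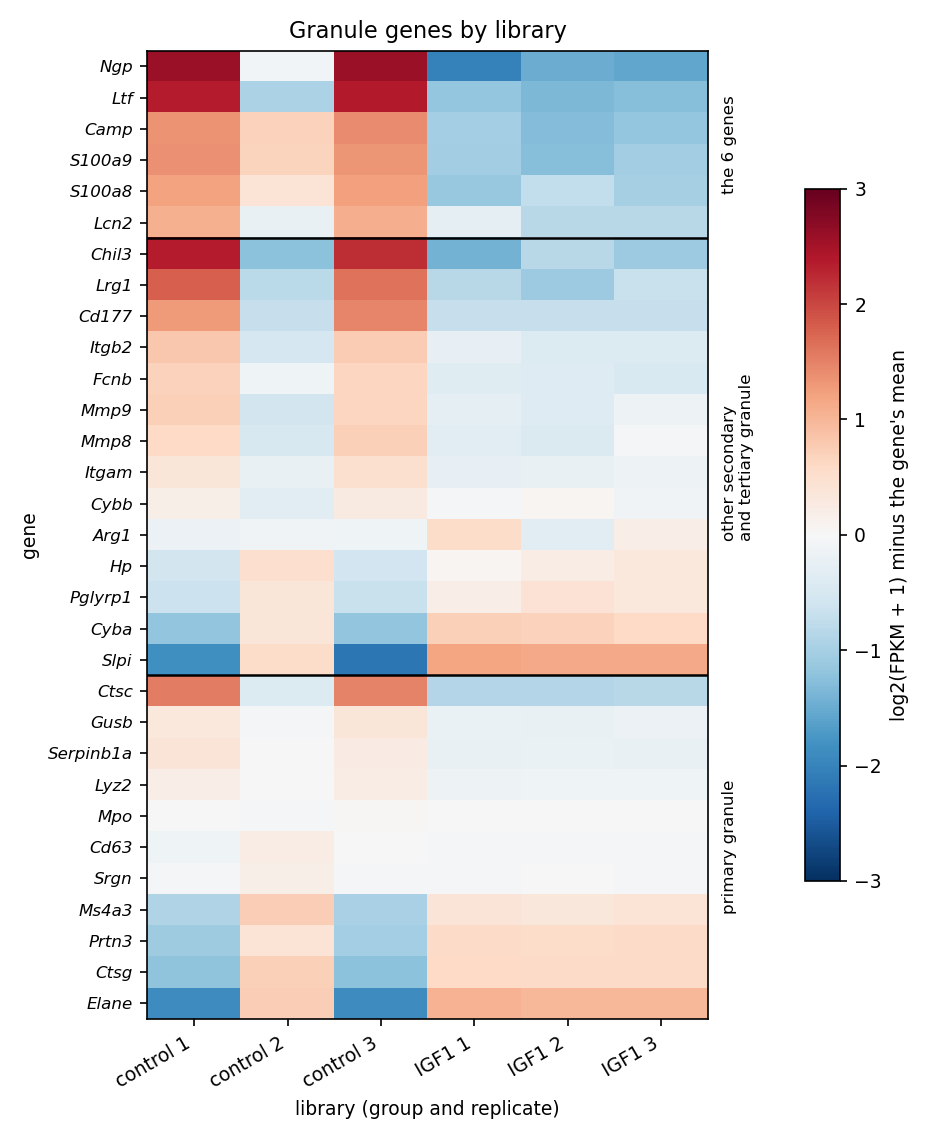
Heatmap of log2(FPKM + 1) minus each gene's mean over the 6 libraries (rows are genes with at least 1 FPKM in any library, columns are libraries, red is above and blue below the gene's mean). The 6 genes are lower in all IGF1 libraries, Chil3, Lrg1 and Cd177 are high in control replicates 1 and 3 alone, and Mpo is level.

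The tested paralogs of the calprotectin genes lay on the other side of 0 on this scale. All 8 tested of the 14 other S100 genes lay above 0, with a median log2 difference of 1.01. Of these, S100a5 passed the filter only through the IGF1 libraries. The untested S100a3, S100a7a, S100a14, S100a16 and S100b, under 1 FPKM in every library, lay below 0, and S100z was listed at 0. The limma test passed 0, with 6 at an unadjusted p under 0.05, and voom called 1, S100a4. S100a10, the annexin A2 partner, measured 240, 721 and 228 FPKM in controls and 793 to 817 FPKM with IGF1 (log2 difference 1.24, limma adjusted p = 0.078). S100a11 measured 225, 353 and 202 FPKM in controls and 472 to 488 FPKM with IGF1 (0.92, under the fold threshold, limma adjusted p = 0.046). Without control replicate 2, 6 of the 8 passed as higher and 0 as lower, where 12.3% of all genes passed as higher. With the trends on length and GC content removed, 6 of 8 stayed above 0 and the median was 0.20. S100a8 and S100a9 lie 22.6 kb apart in the S100 cluster of chromosome 3 (chr3:90669071-90670034 and chr3:90692630-90695721, GRCm38).

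Relatives of the other members were described from a list of 13 cystatin, lipocalin and transferrin genes, of which 12 were listed and 5 tested. The limma test passed 0, with 2 at an unadjusted p under 0.05 and 0 called by voom. The median log2 difference was 0.30, and it turned to -0.19, with 2 of 5 above 0, once trends on length and GC content were removed. Cst3, cystatin C, measured 433, 1197 and 426 FPKM in controls and 1526 to 1540 FPKM with IGF1 (1.34, limma adjusted p = 0.061). Cstb, cystatin B, measured 97.9, 302 and 92.9 FPKM in controls and 312 to 314 FPKM with IGF1 (1.15, limma adjusted p = 0.089). Trf, transferrin, the closest listed relative of lactoferrin, was chosen after its values were seen. It measured 111, 34.8 and 119 FPKM in controls and 34.4 to 36.0 FPKM with IGF1, with control replicate 2 among the IGF1 libraries. Stfa1, Stfa2, Stfa3 and BC100530, stefins of the neutrophil programme, and Rbp4 were listed at 0 in all libraries. Stefin copies are near-identical, so that reads can be lost between them.

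Receptors and partners of the secreted products came next, with 14 listed, 9 tested and 1 passing. Ager, the receptor RAGE that binds calprotectin, measured 0.26, 0.842 and 0.0287 FPKM in controls and 2.17, 1.35 and 1.69 FPKM with IGF1. The test called it higher (log2 difference 1.02 ± 0.24 SE, limma adjusted p = 0.043), at a level near the filter. It passed the filter only through the IGF1 libraries, so the filter favoured this call. Tlr4, the other calprotectin receptor, measured 1.80, 1.87 and 1.89 FPKM in controls and 0.787 to 1.10 FPKM with IGF1, a log2 difference of -0.59 that stayed under the fold threshold (limma adjusted p = 0.031) and turned to 0.055 with trends on length and GC content removed. Bsg, basigin, which binds S100A9, was between 222 and 291 FPKM in every library. Myd88, the adaptor of Tlr4, measured 73.5, 38.5 and 71.0 FPKM in controls and 32.9 to 34.9 FPKM with IGF1 (-0.77, limma adjusted p = 0.065). Slc22a17, a receptor for lipocalin 2, measured 3.96, 4.08 and 4.36 FPKM in controls and 5.23 to 6.37 FPKM with IGF1 (0.43, limma adjusted p = 0.052). Lrp2 was listed at 0.

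Among 18 regulators of granule genes, 17 were tested, 1 rose and 1 fell. Cebpb, C/EBPβ, a factor of emergency granulopoiesis, rose from 54.6, 58.2 and 47.7 FPKM in controls to 144, 143 and 134 FPKM with IGF1 (log2 difference 1.38 ± 0.11 SE, limma adjusted p = 0.029). Here control replicate 2 was like the other controls. Cbfb, the partner of RUNX factors, fell from 110, 38.5 and 107 FPKM to 24.7, 27.9 and 23.7 FPKM (-1.56 ± 0.41 SE, limma adjusted p = 0.048), with control replicate 2 next to the IGF1 libraries. Cebpe, C/EBPε, the factor that secondary granule genes need, was chosen after its values were seen. It measured 1.46, 9.87 and 3.41 FPKM in controls and 9.13 to 11.3 FPKM with IGF1, so that it was not low where the members were low (1.19, limma adjusted p = 0.11). Spi1, PU.1, measured 124, 163 and 124 FPKM in controls and 218 to 220 FPKM with IGF1, and Irf8, a factor of monocytes, 67.6, 91.4 and 69.0 against 123 to 130 FPKM. Both differences, 0.69 and 0.73, were under the fold threshold (limma adjusted p = 0.039 and 0.037). The remaining tested regulators had log2 differences between -0.98 for Csf3r, the G-CSF receptor, and 0.57 for Rara, the retinoic acid receptor. Over the 6 lists of granule proteins, paralogs, receptors and regulators, 59 genes were tested, and 2 rose and 1 fell. Of the 2 that rose, Ager had passed the filter only through its IGF1 values. All 3 calls, Ager, Cebpb and Cbfb, were lost when any library but control replicate 2 was left out. They were also lost with the trends on length and GC content removed, where the differences were 0.79, 0.63 and -0.95, and those of Ager and Cbfb under quantile normalization. Without control replicate 2, 17 rose and 8 fell, where 12.3% of all genes rose and 20.6% fell.

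**Figure D4:**
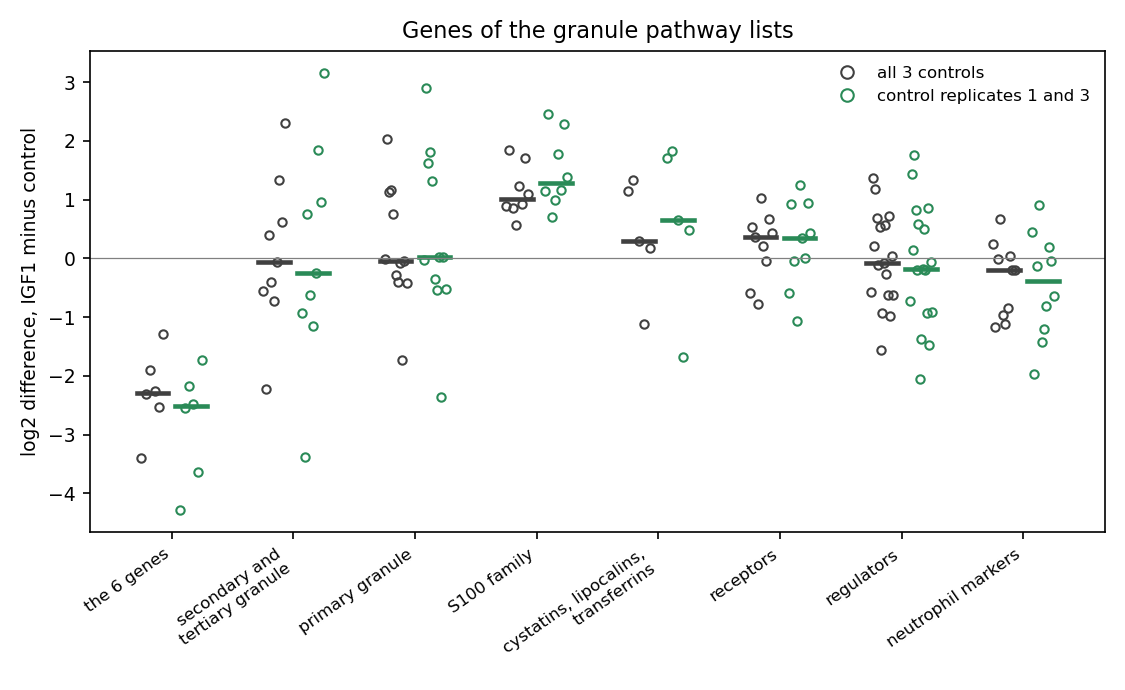
Log2 difference between IGF1 and control (vertical axis, log2(FPKM + 1) scale) for each tested gene of the lists and for all 6 members, with all 3 controls (grey) and with control replicates 1 and 3 alone (green). Bars are medians: the members lie at -2.28 and -2.51, and the S100 family at 1.01 and 1.28.

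Markers of other cells were compared in the same libraries. The summed level of 13 neutrophil markers was 62.2 and 62.3 FPKM in control replicates 1 and 3, 45.9 FPKM in control replicate 2 and 40.7 to 43.7 FPKM with IGF1. Clec4d, a C-type lectin receptor with the highest mean of them over all 6 libraries, measured 7.71, 13.7 and 8.17 FPKM in controls and 14.7 to 17.1 FPKM with IGF1. Clec4e, picked after its values were seen, was higher in control replicates 1 and 3. It measured 18.4, 6.50 and 19.3 FPKM in controls and 6.01 to 6.92 FPKM with IGF1. Of the 10 tested, 3 were at an unadjusted p under 0.05, and 1 passed as lower, namely Trem1, an activating receptor of myeloid cells, at 4.79, 3.32 and 3.88 FPKM in controls and 1.25 to 1.37 FPKM with IGF1 (-1.11, limma adjusted p = 0.029). Ly6g, the defining surface marker of mouse neutrophils, was at 0.2 and 0.133 FPKM in control replicates 1 and 3 and listed at 0 in the other 4 libraries. Retnlg, another gene of mature neutrophils, was picked after its values were seen and measured 10.4, 1.14 and 10.4 FPKM in controls and 1.4 to 2.39 FPKM with IGF1. The part of these cells in the members' levels was not tested.

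The 13 monocyte and macrophage markers summed to 154 and 157 FPKM in control replicates 1 and 3, 632 FPKM in control replicate 2 and 576 to 589 FPKM with IGF1, with 1 of 10 tested called higher and Vcan listed at 0. Ly6c2 led them in the mean over all 6 libraries, by which the leading gene of each list is named here. In control replicates 1 and 3, Ms4a6c and Cd68 were above it. The sum of the monocyte and macrophage markers was highest in control replicate 2, as was that of the B cell markers. The 11 B cell markers summed to 128 to 129, 510 and 486 to 508 FPKM in the same order, with 0 of 8 called and 5 at an unadjusted p under 0.05. Vpreb1 led them in the mean over all 6 libraries, but Cd79b was highest in control replicates 1 and 3 and Igll1 in control replicate 2. Eosinophil, basophil and mast cell markers, with Cpa3 the highest on average, summed to 82.5 to 125 FPKM in controls and 137 to 142 FPKM with IGF1. Of the 5 tested, 1, Prg2, was called higher and 3 had a log2 difference below 0, and for 4 of the 8 listed, Cpa3 among them, every IGF1 library was below every control library in FPKM, although the sign of Cpa3 turned under quantile normalization and 75th percentile scaling. T and NK cell markers, led by Nkg7, summed to 389 to 811 and 804 to 821 FPKM, with 0 of 4 called and 0 at an unadjusted p under 0.05. Megakaryocyte markers, led by Pf4 in the mean over all 6 libraries, summed to 54.1 to 77.9 and 102 to 112 FPKM, with 2 of 5 called higher and Gp6 listed at 0. In control replicates 1 and 3, Itga2b (32.2 and 32.3 FPKM) was above Pf4 (15.6 and 15.1 FPKM). Erythroid markers, led by Hbb-bt, summed to 36.5 to 103 and 48.7 to 55.6 FPKM, with 0 of 6 called and 0 at an unadjusted p under 0.05. Stromal and endothelial markers, led by Adipoq in the mean over all 6 libraries but by Cxcl12 over Adipoq in every control, reached at most 2.30 FPKM in sum. The HSC genes, led by Ly6a, summed to 498 to 723 and 462 to 479 FPKM, with 0 of 10 called, 5 at an unadjusted p under 0.05 and 1 called by voom. Cd34 measured 640, 265 and 634 FPKM in controls and 230 to 238 FPKM with IGF1. Without control replicate 2, 6 of 10 monocyte, 5 of 8 B cell and 4 of 5 megakaryocyte markers were called higher, against 12.3% of all genes. So were 2 of 5 eosinophil, basophil and mast cell markers and 1 of 4 T and NK cell markers. Called lower were 5 of 10 HSC genes and 3 of 10 neutrophil markers, against 20.6% of all genes.

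The members with short transcripts, which Ltf is not, ran against a trend with gene length. Genes with short transcripts tended to be higher with IGF1, with a median log2 difference of 0.37 over the shortest of 5 equal length classes (107 to 1896 bases) and -0.42 over the third class. Ngp, Camp, S100a8, S100a9 and Lcn2 all belong to the shortest class. Over the 246 tested genes no longer than Camp (758 bases) the median was 1.17. Of them, 5 were called lower, among them Camp, S100a8 and S100a9, against 4.63% of all genes tested. The members were chosen for being lower with IGF1, so their place below this trend was fixed by the choice. With trends on length and GC content removed, the log2 differences were -3.68 for Ngp, -3.13 for Camp, -2.52 for S100a8, -2.90 for S100a9 and -1.60 for Lcn2.

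**Figure D5:**
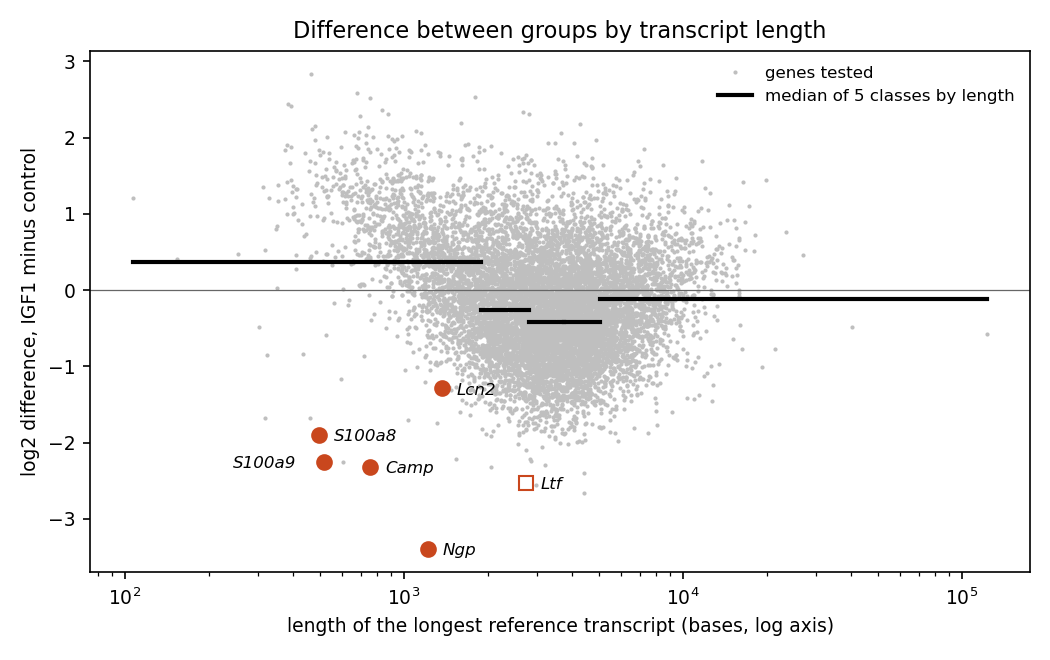
Log2 difference between IGF1 and control (vertical axis) against the length of the longest reference transcript in bases (log axis). Grey points are tested genes, black bars the medians of 5 equal classes by length, and orange marks the members, with Ltf as an open square because it did not pass the filter. Lcn2 lies at the lower edge of the genes of its length, and the other members lie below nearly all of theirs, a place fixed by their choice from this contrast.

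Camp, Ngp and Ltf share one stretch of chromosome 9. Camp (chr9:109847377-109849456), Ngp (chr9:110419808-110423012) and Ltf (chr9:111019292-111042766) lie within 1195 kb, with 28 other protein-coding genes in the RefSeq annotation between them. Of these, 14 were tested, with log2 differences between -1.06 and 1.31 and a median of 0.13, and 0 were called lower and 1, Nbeal2, higher. Lcn2 lies on another chromosome (chr2:32384637-32387739). The differences of Camp, Ngp and Ltf were larger in size than those of each tested gene between them. The members were chosen for their difference in this contrast, so this was fixed by the choice, and Ltf did not enter the fit.

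The genes with the most similar profile over the 6 libraries were not granule genes. The smallest distances to the members' mean profile, centred on log2(FPKM + 1) over 10449 genes, were those of Kpna2 (0.17), Sdcbp (0.29), Pmpca (0.31), Rnf139 (0.36) and Gm10698 (0.38). The members themselves lay between 0.75 (S100a9) and 1.69 (Ngp) from their own mean. Kpna2, the nuclear import adaptor importin alpha 2, measured 188, 68.2 and 187 FPKM in controls and 24.9 to 28.0 FPKM with IGF1. Sdcbp, syntenin, measured 403, 120 and 408 FPKM in controls and 60.5 to 65.3 FPKM with IGF1.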

How the data were processed

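RNA was sequenced from stranded mRNA libraries of sorted HSCs. The authors deposited 1 FPKM value per gene symbol and library. Per the submitters' processing notes, fastp, HISAT2, StringTie and GRCm38 (mm10) were used, while the study's methods name fastp and RSEM v1.2.12. Which of them made the FPKM values is not given in the sources used here. Members and gene lists were chosen with earlier results of these data known. A gene entered the fit if 3 of its 6 values reached 1 FPKM. The fit used log2(FPKM + 1) and limma (version 3.58.1, R version 4.3.3, eBayes with a trend), Benjamini-Hochberg adjusted over 10449 genes, and called at a fold change over 2 and an adjusted p under 0.05. The study's DESeq2 test needs counts and was not used. Reads were recovered as whole multiples of 1 step per gene, within 0.02 of a whole number in 15640 of 15640 rows above 0, against 10 of 1000 jittered rows. Their absolute scale is approximate. Intervals cover counting error only. Named from each list were the called genes (up to 3 per direction) and the 2 with the highest mean, from each marker list the highest and those at 0, and the 5 nearest profiles. Other names were chosen after their values were seen. 1 listed neutrophil marker is not reported here and was left out of its list. Alternatives were other pseudocounts, filters and scalings, no variance trend, a replicate block and leaving out each library, and, chosen after seeing the data, removal of length and GC trends and limma voom on the recovered reads.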

Additional observations from a re-analysis of the deposited data

How the results depend on the processing

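Each member stayed lower with IGF1 in 91 of 91 values under the alternatives, between -4.28 and -0.73 on the log2 scale, and the median over the 6 members lay between -2.51 and -2.06 when 1 library was left out. The members were chosen for being lower in these values. Since every IGF1 library lay below every control library for each member, only the scalings, the trend removal and voom could change this sign. Ltf, and so the median of all 6, had no value with a minimum of 5 FPKM, quantile normalization, the length and GC correction or voom, and Lcn2 none with a minimum of 5 FPKM. Counts of called genes depended on the settings, against 207 higher and 484 lower. Leaving out 1 library gave 0 to 1281 higher and 0 to 2157 lower, with calls only without control replicate 2. In the 6 lists (2 higher, 1 lower) these ranges were 0 to 17 and 0 to 8. The replicate block called 0 genes in every count, lists included, with 4791 at an unadjusted p under 0.05. Same-numbered libraries did not deviate together (correlations of -0.06, -0.05 and 0.01). In the controls these deviations are set mainly by replicate 2, so this check could miss a small effect of pairing. A pseudocount of 5 gave 66 higher and 157 lower, and 1 and 0 in the lists. No filter gave 109 and 265, with 0 lower in the lists. Quantile normalization gave 304 higher and 319 lower, and 1 and 0 in the lists, and moved the median of all genes from -0.18 to -0.02. The 75th percentile gave 300 higher and 259 lower, with 4 higher in the lists and a median of 0.04. With length and GC trends removed, 182 were higher and 141 lower, with 1 and 0 in the lists. Voom on the recovered reads called 382 higher and 680 lower, with 2 lower in the lists. Pseudocount 0.1 and a minimum of 5 FPKM each left 1 higher in the lists. The calls of Ager, Cbfb and Cebpb were lost under the block, with length and GC trends removed and without any library but control replicate 2. Those of Ager and Cbfb were also lost with a pseudocount of 5 and under quantile normalization, that of Ager with a pseudocount of 0.1 and voom, and that of Cbfb without a filter. No called gene that is named changed sign. Among named genes not called, the sign changed for Mpo (0.25 at the 75th percentile, 0.075 with trends removed, -0.028 to 0.012 leaving out 1 library), Bsg (-0.064 by quantiles, -0.10 with trends removed), Cpa3 (0.054 by quantiles, 0.063 at the 75th percentile), Hbb-bt (-0.67 with trends removed, -0.011 to 0.26 leaving out 1 library), Ly6a (-0.15) and Tlr4 (0.055), both with trends removed. The cause of these changes was not tested.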
